A study of Canis lupus familiaris with 21 samples.

Results

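CTLA4, CD28 and ICOS, the receptors of the CD28 family that switch T cell activation off and on, were examined in canine cutaneous histiocytoma (CCH), together with FOXP3, IL2RA, IKZF2, TNFRSF18 and TNFRSF4, genes known from regulatory T cells. The members were chosen by gene symbol, and 7 of the 8 were measured among the 21399 genes of the series. FOXP3, the factor that defines regulatory T cells, was not analysed here. CCH is a skin tumor of Langerhans cell origin in dogs that commonly regresses, and the study asked how the immune response differs between its stages. RNA of 21 formalin-fixed, paraffin-embedded samples from privately owned dogs of various breeds was measured by QuantSeq 3′ sequencing, which counts reads at the ends of transcripts. Group 1 (n = 5, dogs aged 0.5 to 5.0 years, 1 age not given) was stage 1, in which lymphocytes are by definition absent. Group 2a (n = 5, 0.6 to 3.0 years) was tumor cell-rich tissue and group 2b (n = 6, 0.3 to 6.0 years by the labels, 1 age in a pool not given) lymphocyte-rich tissue of stage 2, each punched out under the microscope. Group 3 (n = 5, 1.5 to 9.0 years) was stage 3, in which lymphocytes have spread through the tumor and gather in follicle-like groups. Of the group 2b samples, 4 were pools of tissue from 3 or 4 tumors and 2 came from a single dog. No sample was normal skin or lymph node.

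CD28 on a T cell binds CD80 and CD86 on antigen-presenting cells and gives the second signal for activation. CTLA4 binds the same ligands more tightly, is induced on activated T cells and is held at a high level by regulatory T cells, where it strips the ligands from presenting cells. ICOS is induced after activation, binds ICOSLG and is needed by follicular helper T cells, which support B cells. IL2RA is the chain that gives the interleukin-2 receptor its high affinity, IKZF2 encodes the factor Helios, and TNFRSF4 (OX40) and TNFRSF18 (GITR) are costimulatory receptors that regulatory T cells carry at rest and other T cells gain on activation.

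On the UU_Cfam_GSD_1.0 assembly, the CD28 family genes follow each other on chromosome 37, with CD28 at 12361906 to 12391080, CTLA4 at 12505745 to 12511890 and ICOS at 12571149 to 12591783. The gaps between them are 114664 and 59258 bases. IKZF2 lies on the same chromosome at 20373416 to 20528153. TNFRSF18 (56870818 to 56873370) and TNFRSF4 (56877316 to 56880258) are neighbours on chromosome 5, separated by 3945 bases, and IL2RA is on chromosome 2 at 28928272 to 28977130. Each value is a count per gene, so no exon or transcript form is told apart.

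The total count on genes was 2113393 to 3559404 per sample, so that a normalized count of 1 was close to 1 read. The summed normalized count of 10 T cell markers was 3227 to 4664 in group 2b and 3390 to 5080 in group 3, against 534 to 1565 in group 2a. In group 1 it ran from 65.2 in replicate 1 to 2260 in replicate 3, so T cell RNA was present in tumors whose stage is defined by the lack of lymphocytes. The T cell marker CD4 was near 0 throughout (at most 2.01 in any sample), although CD3E reached 1018, so a low 3′ count was not taken as lack of a cell type. Of the Langerhans and myeloid markers, AIF1 (299 to 807) and ITGB2 (1741 to 3551) were high in each sample. ITGAX, CSF1R and CD68 also had reads in each sample. CDH1 (14.89 to 330.6), LYZ (0 to 412) and EPCAM (1.169 to 74.52) varied widely or were low. CD1A6 did not exceed 3.51, and CD207 was not analysed here. The level of these markers was not taken as a measure of tumor cells. DV200, the percentage of longer RNA fragments, was lower in group 1 (68.5 ± 2.46, SD, n = 5) than in groups 2a (73.7 ± 2.69, n = 5), 2b (74.6 ± 1.73, n = 6) and 3 (73.2 ± 2.09, n = 5). In such bulk samples, fewer cells of a type and less RNA per cell cannot be told apart.

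**Figure D1:**
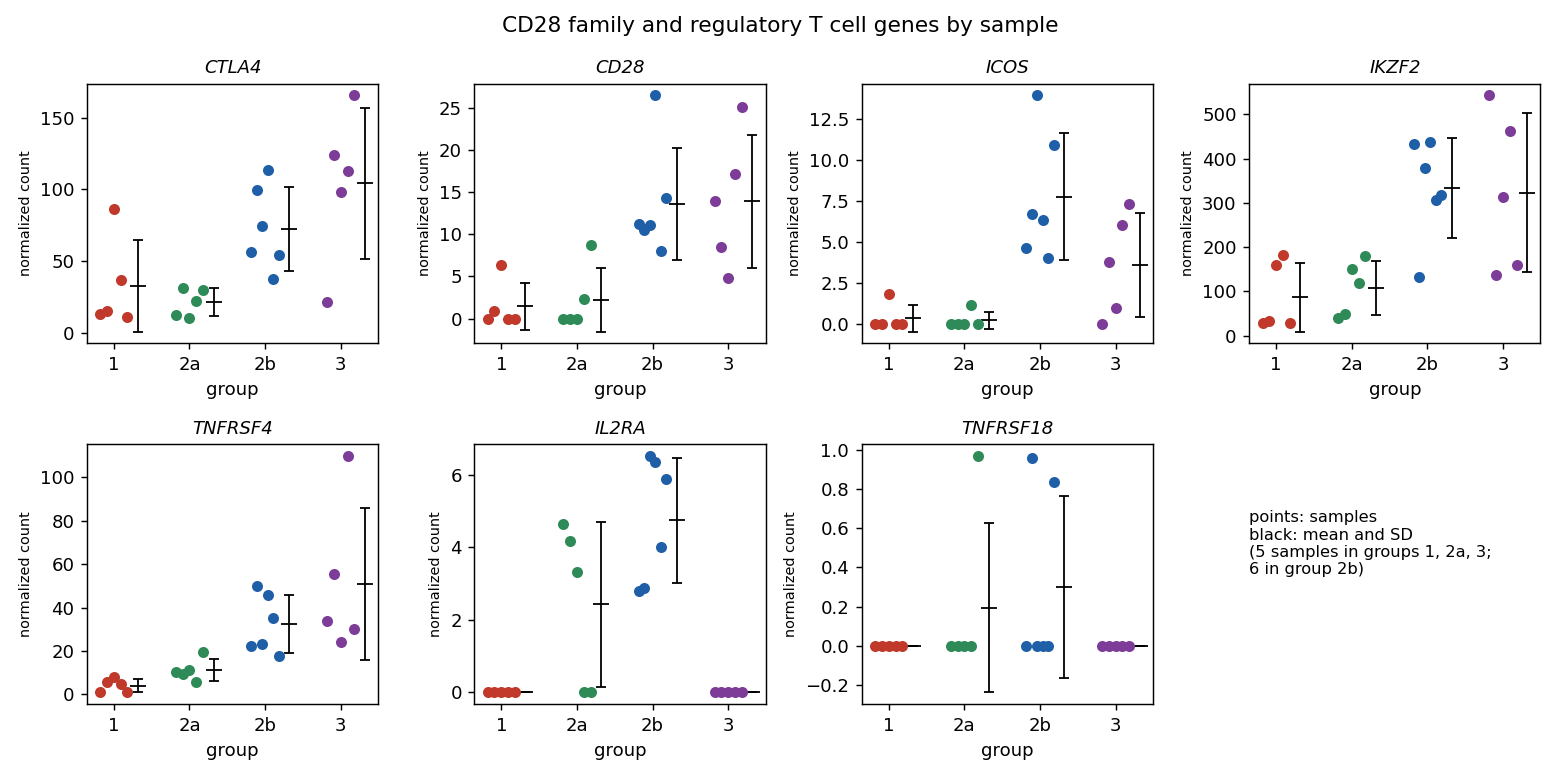
Normalized count (raw count divided by the size factor of the sample, linear axes that differ between panels) of the 7 measured genes in each sample of groups 1, 2a, 2b and 3, with the mean and SD in black. CTLA4, CD28, IKZF2 and TNFRSF4 lie mostly higher in groups 2b and 3, whereas IL2RA is listed at 0 in the 5 samples of group 3.

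CTLA4 had reads in all 21 samples and was 3.4-fold higher in the lymphocyte-rich than in the tumor cell-rich areas of stage 2. Its normalized counts were 13.2, 15.0, 86.5, 37.0 and 10.9 in group 1, and 12.1, 31.3, 10, 22.2 and 30.02 in group 2a. In group 2b they were 56.0, 99.6, 74.5, 114, 37.2 and 54.0, and in group 3 they were 20.98, 124, 97.97, 113 and 165. Each group 2b sample lay above each group 2a sample, which was so for 6.07% of the genes tested in this comparison. Replicate 3 of group 1, with the highest T cell marker sum of its group, lay among the lymphocyte-rich samples, and replicate 1 of group 3 lay among the tumor cell-rich ones.

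From group 2a to group 2b, CTLA4 rose by a log2 fold change of 1.77 (SE 0.37, edgeR quasi-likelihood adjusted p = 0.0046). The difference between group 3 and group 2b was 0.52 (95% interval -0.31 to 1.35, edgeR adjusted p = 0.596). That between group 2a and group 1 was -0.61 (-1.90 to 0.67, edgeR adjusted p = 0.640), and 0.15 without replicate 3 of group 1. The medians ran the other way from the means, at 15.0 in group 1 and 22.2 in group 2a. In group 3 against group 1, which differ in both stage and type of area, it was 1.66 (0.35 to 2.98, edgeR adjusted p = 0.0865) and did not pass the threshold, but it did without replicate 3 of group 1 (2.42, adjusted p = 0.0177). By their means, the groups ran from 2a (21.1 ± 9.86, SD) through 1 (32.5 ± 31.9) and 2b (72.5 ± 29.3) to 3 (104 ± 52.8), and neither the 2 lower nor the 2 upper groups differed beyond their spread.

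CD28, the activating counterpart, had 85 reads in group 2b and 69 in group 3, but 8 in group 1 and 11 in group 2a. Its normalized counts were 0, 0.94, 6.38, 0 and 0 in group 1 and 0, 0, 0, 2.34 and 8.72 in group 2a. In group 2b it had 11.2, 10.5, 11.2, 26.5, 8.04 and 14.3, and in group 3 it had 14.0, 8.49, 4.85, 17.1 and 25.1. The highest sample of each tumor cell-rich group, replicate 3 of group 1 and replicate 5 of group 2a, was also the one with the highest T cell marker sum of its group. CD28 was higher in group 2b than in group 2a by a log2 fold change of 2.52 (SE 0.78, edgeR adjusted p = 0.0411), but it passed the count filter through the group 2b samples alone, and the call was lost without any 1 of replicates 1 to 4 of group 2a (edgeR adjusted p = 0.0616 to 0.0783). Without replicate 1, 2, 3, 4 or 6 of group 2b the gene failed the filter and was not tested. Groups 3 and 2b had nearly the same mean (13.9 ± 7.87 and 13.6 ± 6.63, SD), with a log2 fold change of 0.02 (-0.97 to 1.01, edgeR adjusted p = 0.989). Group 3 against group 1 fell under the filter. There the difference on the log2(normalized count + 1) scale was 2.95 (2-sided exact permutation p = 0.0159), and 4 of 5 group 3 samples exceeded the highest of group 1. In group 2a against group 1 it was 0.24 (exact permutation p = 0.841).

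ICOS separated the areas of stage 2 completely, at low counts. Group 2b had 4.67, 6.70, 14.0, 6.37, 4.02 and 10.96 normalized counts, whereas group 2a had 1.17 in replicate 4 and 0 in the other samples, and group 1 had 1.82 in replicate 3 and 0 elsewhere. Group 3 was spread out, with 0, 3.77, 0.97, 6.04 and 7.33. The samples of groups 2b and 2a did not overlap, as in 3.72% of genes with any read, and the difference was 2.80 on the log2(normalized count + 1) scale (2-sided exact permutation p = 0.0043, the smallest that 6 against 5 samples can give). ICOS failed the count filter in each comparison. With every gene that had a read, edgeR gave it an adjusted p of 0.0046. Group 3 was 1.20 below group 2b on the same scale, with 3 of 5 samples below each group 2b sample, but the test did not pass (exact permutation p = 0.0823). Against group 1, the difference of group 3 was 1.52 (exact permutation p = 0.0873), and in group 2a against group 1 it was -0.08 (exact permutation p = 1).

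The balance of the inhibitory to the activating receptor was followed as the log2 ratio of CTLA4 to CD28, each with 1 added to its normalized count. How fully 3′ counting captures each of the genes is not known, so this ratio serves only to compare groups. It was 3.85 ± 0.83 (SD, n = 5) in group 1 and 3.33 ± 1.23 (n = 5) in group 2a. The lymphocyte-rich groups had 2.33 ± 0.47 (2b, n = 6) and 2.73 ± 1.37 (3, n = 5). It ran from 1.84 to 3.13 in group 2b, while group 3 held both the lowest value of all samples, 0.55 in replicate 1, and 4.08 in replicate 3. None of the 4 comparisons passed (exact permutation tests, adjusted p = 0.397 to 0.599 over 8 tests), and the difference between groups 2b and 2a was -1.004 (unadjusted exact permutation p = 0.0996). With CD28 at 0 in 6 of 10 tumor cell-rich samples, their ratio depended on the count added.

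Per T cell transcript, measured as the log2 ratio to CD3E, CTLA4 had nearly the same mean in both lymphocyte-rich groups when replicate 1 of group 3 was included. The ratio was -3.16 ± 0.47 (SD, n = 6) in group 2b and -3.20 ± 1.33 (n = 5) in group 3, a difference of -0.04 (exact permutation p = 0.931), which was 0.54 without replicate 1 of group 3 (exact permutation test, adjusted p = 0.266). It was -2.78 ± 0.67 (n = 5) in group 2a, and -0.38 separated group 2b from it (exact permutation p = 0.346, adjusted p = 0.550). Group 1 had a higher and more variable ratio, -1.51 ± 2.01 (n = 5). Against group 1, the difference was -1.265 for group 2a (exact permutation p = 0.198) and -1.687 for group 3 (exact permutation p = 0.159). Neither passed (adjusted p = 0.397 for each). CD3E also rose from group 2a to group 2b (log2 fold change 2.03, edgeR adjusted p = 0.00066). The part of T cell content in the increase of CTLA4 was not tested. At the extremes stood replicate 1 of group 1, with a CTLA4 count of 13.2 beside 2.83 for CD3E, and replicate 1 of group 3, with 20.98 beside the highest CD3E count of the series.

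**Figure D2:**
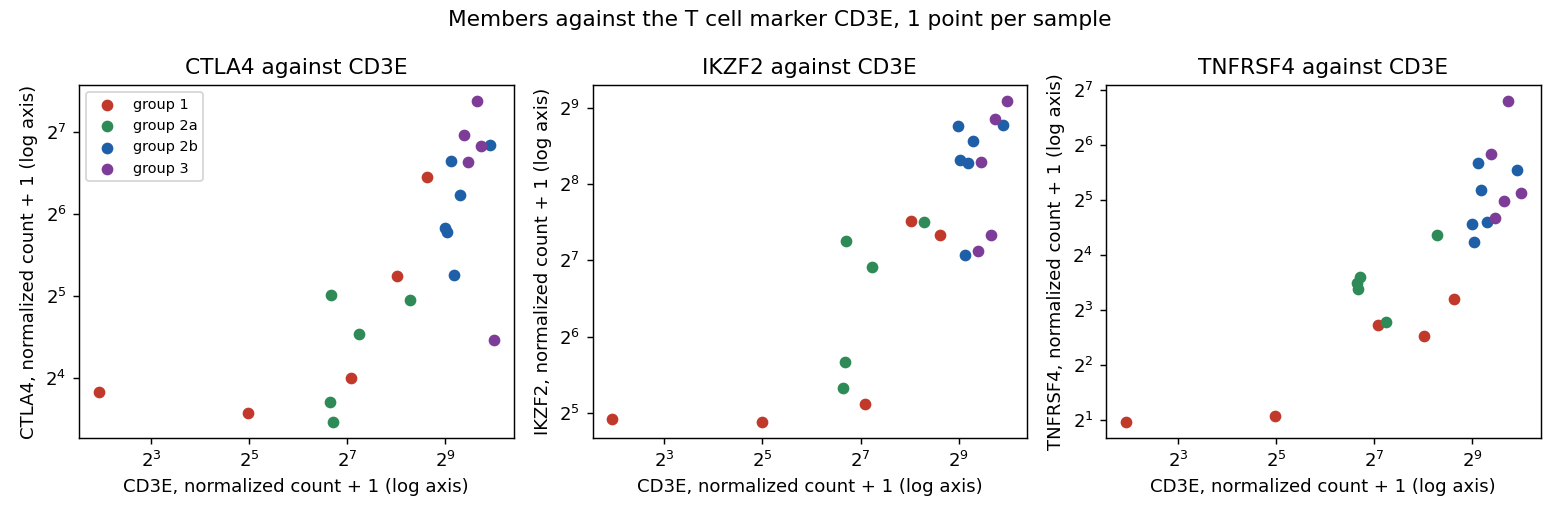
CTLA4, IKZF2 and TNFRSF4 against CD3E in the 21 samples, each as normalized count plus 1 on log axes, coloured by group. Lymphocyte-rich samples lie mainly at the upper right, and for CTLA4, replicate 1 of group 1 (13.2 at a CD3E count of 2.83) and replicate 1 of group 3 (20.98 at 1018) stand apart from the other samples.

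The remaining CD28 family ratios to CD3E are given without a test. For CD28 the mean log2 ratio was -5.49 ± 0.35 (SD, n = 6) in group 2b and -5.93 ± 0.73 (n = 5) in group 3. For ICOS it was -6.24 ± 0.70 in group 2b and -7.83 ± 1.41 in group 3, so the ICOS count was low relative to CD3E in several samples of stage 3, lowest at -9.99.

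Among the regulatory T cell genes, IKZF2 had reads in all samples and rose between the areas of stage 2. Helios, which it encodes, occurs in regulatory T cells and also in other lymphocytes. The normalized counts were 29.3, 33.7, 160, 183 and 28.4 in group 1, and 39.0, 50.02, 151, 119 and 180 in group 2a. Group 2b had 433, 133, 378, 437, 307 and 318, and group 3 had 543, 138, 312, 462 and 160. Thus 5 of 6 group 2b samples lay above all of group 2a. Replicate 2 of both lymphocyte-rich groups and replicate 5 of group 3 were in the range of the tumor cell-rich samples. The log2 fold change from group 2a to group 2b was 1.63 (SE 0.39, edgeR adjusted p = 0.0110). Group 3 differed from group 2b by -0.05 (-0.80 to 0.69, edgeR adjusted p = 0.964), and group 2a from group 1 by 0.32 (-0.998 to 1.63, edgeR adjusted p = 0.831). Group 3 against group 1 gave 1.88 (0.60 to 3.16, edgeR adjusted p = 0.0518), just outside the threshold. Relative to CD3E, the mean log2 ratio of IKZF2 ran from -0.18 ± 1.91 (SD, n = 5) in group 1 to -1.51 ± 0.73 (n = 5) in group 3, with overlapping ranges.

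The mean of TNFRSF4 was 4.11 ± 3.10 (SD) in group 1 and 11.2 ± 4.99 in group 2a, against 32.3 ± 13.3 and 50.8 ± 35.0 in the lymphocyte-rich groups 2b and 3. By sample, it had 0.94, 5.62, 8.20, 4.72 and 1.09 normalized counts in group 1 and 10.2, 9.38, 11.1, 5.85 and 19.4 in group 2a. In group 2b it had 22.4, 49.8, 23.3, 45.6, 35.2 and 17.7, and in group 3 it had 34.0, 55.7, 24.3, 110 and 30.4. All group 3 samples exceeded all group 1 samples, as did 6.04% of the genes tested, and 4 of 5 group 2a samples exceeded all of group 1.

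In the fit, TNFRSF4 was higher in group 2b than in group 2a by a log2 fold change of 1.50 (SE 0.38, edgeR adjusted p = 0.0152) and higher in group 3 than in group 1 by 3.57 (SE 0.62, edgeR adjusted p = 0.0048). In the latter comparison it passed the count filter through group 3 alone, and with DV200 as a covariate the adjusted p was 0.0858 at a log2 fold change of 3.49. Group 3 differed from group 2b by 0.65 (-0.20 to 1.50, edgeR adjusted p = 0.516). Between the tumor cell-rich groups, the gene fell under the filter, and group 2a was 1.42 above group 1 on the log2(normalized count + 1) scale (2-sided exact permutation p = 0.0159, unadjusted). With every gene that had a read, edgeR gave this difference an adjusted p of 0.374. The T cell marker sum overlapped between groups 2a and 1, and DV200 was higher in group 2a. Keratinocyte markers had a median log2 fold change of -2.06 in group 2a against group 1 (0 of 8 called by edgeR, 1 by DESeq2, 6 at an unadjusted p under 0.05), with summed normalized counts of 278 to 3168 against 852 to 13034. Of all genes, 17.9% had such a p in this comparison, and DESeq2 called 264 of 11200. The part of the keratinocyte markers in the TNFRSF4 difference was not tested. Relative to CD3E the mean log2 ratio was -4.30 ± 0.50 (SD, n = 6) in group 2b and -4.18 ± 0.87 (n = 5) in group 3.

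Counting the members that passed the filter, 4 of 4 were called higher in group 2b than in group 2a, where 5.98% of all tested genes were called higher, but CD28 was admitted by group 2b alone, so the count is a description. TNFRSF4 was the 1 called of 3 tested in group 3 against group 1, where 4.92% of all genes were called higher, but it was admitted by group 3 alone, so its call is no support. DESeq2 called all 3, and 1254 of all 11470 genes. All 3 also had an unadjusted edgeR p under 0.05, as did 3413 of the 11470 genes. In group 2a against group 1, 0 of 2 were called, in a comparison in which edgeR called 0.393% of all genes in either direction. In group 3 against group 2b, 0 of 4 were called, with 0.0428% of all genes called. At an unadjusted edgeR p under 0.05 none of these 6 values passed either, while 17.9% and 13.1% of all genes did, and DESeq2 also called 0 members in both. The areas of groups 2a and 2b were chosen for their lymphocyte content, and with the 2 single-dog samples of group 2b alone CTLA4 (1.88, edgeR adjusted p = 0.0912), IKZF2 and TNFRSF4 were higher but not called, and CD28 failed the count filter.

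**Figure D3:**
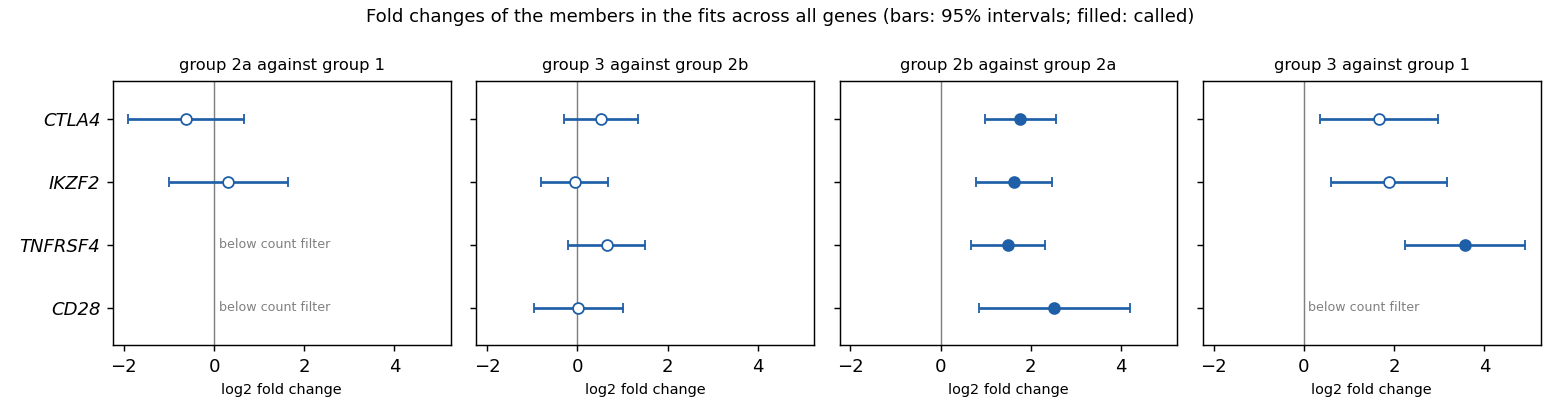
Log2 fold change (points) and 95% interval (bars) of the members that passed the count filter in each of the 4 comparisons, from the edgeR fits over all genes, with filled points for called genes. The 4 genes of group 2b against group 2a lie between 1.50 and 2.52, and those of group 3 against group 2b have intervals that include 0.

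IL2RA had reads in stage 2 samples only. It was listed at 0 in the 5 samples of group 1 and the 5 of group 3, and it had 4.64, 4.17, 3.33, 0 and 0 normalized counts in group 2a. In group 2b it had 2.80, 2.87, 6.52, 6.37, 4.02 and 5.90, which are 3 to 7 raw reads per sample and 30 in all. Groups 3 and 2b did not overlap, a separation downward that 0.62% of genes with any read showed. The difference was -2.46 on the log2(normalized count + 1) scale (2-sided exact permutation p = 0.0043, the smallest possible, unadjusted). A count of 0 was taken to allow up to 3 counts over the whole of group 3. The group 2b mean of IL2RA was 7.97 times that limit. The spread of group 2b does not enter, so this is no lower bound on the fold change. In the fit over every gene with a read, edgeR gave an adjusted p of 0.141, so the difference did not pass over all genes.

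Group 2a against group 1 gave 1.40 for IL2RA (exact permutation p = 0.167), and group 2b against group 2a gave 1.07 (exact permutation p = 0.121). Unlike for CD28, the reads of group 2a came from replicates 1 to 3, which had the lowest T cell marker sums of that group, and the replicate with the highest sum had none. Of 2812 genes with a mean group 2b count within 0.5 to 2 times that of IL2RA, 66 (2.35%) were listed at 0 in all of group 3. In the other direction, 30 of 2797 genes of that level in group 3 (1.07%) were listed at 0 in all of group 2b.

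TNFRSF18 was hardly detected, with 3 reads in the whole series. There was 1 read in 1 sample of group 2a and in each of 2 samples of group 2b, and 0 in groups 1 and 3, so that no difference was detectable at this depth (exact permutation p = 0.545 to 1). Its neighbour TNFRSF4, by contrast, had reads in all 21 samples.

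Of the 8 ligands and receptor partners, 1 was called in group 2b against group 2a, where 5.98% of all genes were called higher and 3.57% lower. CD86, the shared ligand of CD28 and CTLA4 on presenting cells, had mean normalized counts of 665 ± 166 (SD) in group 1, 742 ± 209 in group 2a and, for the lymphocyte-rich groups, 539 ± 113 in 2b and 485 ± 45.8 in stage 3. CD80, the other shared ligand, had 98.5 ± 46.8, 130 ± 39.1, 197 ± 43.1 and 207 ± 56.5. From group 2a to group 2b the log2 fold changes were -0.47 for CD86 (edgeR adjusted p = 0.163) and 0.60 for CD80 (0.0728), neither of which passed. ICOSLG, the ligand of ICOS, gave 0.10 in that comparison (edgeR adjusted p = 0.853), with means of 44.4 and 47.6. The ligand of OX40, TNFSF4, gave 0.82 (edgeR adjusted p = 0.445), and TNFSF18, the ligand of GITR, gave -0.39 (0.747). In the other 3 comparisons edgeR called 0 of the ligands and partners that passed the filter. Of these values, 1 of 4 (group 2a against group 1), 0 of 6 (group 3 against group 2b) and 3 of 4 (group 3 against group 1) had an unadjusted p under 0.05, and DESeq2 called 0, 0 and 2. Over all genes, 17.9%, 13.1% and 3413 of 11470 had such a p. DESeq2 called 264 of 11200, 47 of 11685 and 1254 of 11470.

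IL2RB, the signalling chain of the interleukin-2 receptor that natural killer and CD8 T cells also carry, was the gene that was called. It rose from 38.1 ± 16.6 (SD, n = 5) in group 2a to 135 ± 46.0 (n = 6) in group 2b (log2 fold change 1.81, SE 0.30, edgeR adjusted p = 0.0011) and was 164 ± 39.7 in group 3. The cytokine itself, IL2, was listed at 0 in the 15 samples outside group 2b and had 0.93, 0, 6.52, 0, 2.01 and 2.53 normalized counts within it. The shared chain IL2RG had at most 11.6 in any sample. In stage 3, reads of the beta chain were thus found in each sample and reads of the alpha chain and the cytokine in none. The shared chain was low there too (1.89 to 11.6), so a lack of reads was not taken as lack of a chain.

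**Figure D4:**
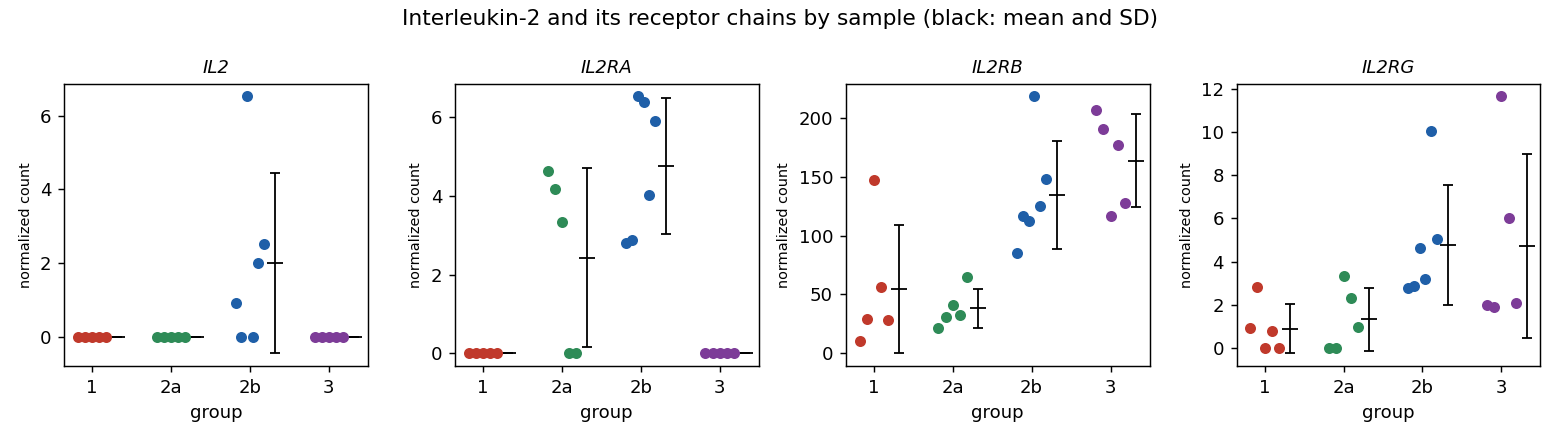
Normalized counts (linear axes that differ between panels) of interleukin-2 and its receptor chains by sample and group, with the mean and SD in black. IL2RA and IL2 have no reads in groups 1 and 3, whereas IL2RB lies between 116 and 207 in group 3.

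Of 18 other genes known from regulatory T cells, 14 passed the filter in each comparison. From group 2a to group 2b 3 rose, where 5.98% of all genes were called higher. They were TNFRSF9 (4-1BB, an activation receptor, log2 fold change 1.60, edgeR adjusted p = 0.0012), TIGIT (an inhibitory receptor, 1.45, 0.0033) and EBI3 (a cytokine subunit, 1.40, 0.0113). ENTPD1, the ectoenzyme CD39 that myeloid cells also carry, fell by 1.38 (edgeR adjusted p = 0.0052), as 3.57% of all genes were called lower. The list's median log2 fold change was 0.42, against -0.01 for all genes and 1.70 for the 4 members. In group 3 against group 1, EBI3 (1.92) and PRDM1 (1.04) rose and NT5E (-2.17) and IL1R2 (-3.19) fell (edgeR adjusted p = 0.0107 to 0.0425). There 4.92% of all genes were called higher and 3.41% lower. In the study's own comparisons edgeR called 0 of 14, and 0.393% (group 2a against group 1) and 0.0428% (group 3 against group 2b) of all genes. At an unadjusted p under 0.05 were 1 and 2, against 17.9% and 13.1% of all genes, and DESeq2 called 0. CCR4, a skin-homing receptor of regulatory and other T cells, and CCR8 and IKZF4 had at most 3.37 normalized counts in any sample.

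The genes that carry the CD28 signal or move CTLA4 to the cell surface were tested as a list of 17. From group 2a to group 2b 7 were called higher (5.98% of all genes) and 0 lower, with a median log2 fold change of 0.70 against -0.01 for all genes. Among the 7 were GRAP2 (1.93), TRAT1 (4.49) and LCK (1.98), all of them parts of the T cell receptor pathway (edgeR adjusted p = 0.00032 to 0.00074), of which TRAT1 passed the filter through group 2b alone. PIK3R1 was lower by less than the threshold of size (-0.62, edgeR adjusted p = 0.0384). LRBA and DEF6, which protect CTLA4 from breakdown or bring it to the surface, were not called in any comparison. Between groups 3 and 1, 6 of 16 were called higher in group 3, as were 4.92% of all genes. In group 2a against group 1 edgeR called 0 of 13 and in group 3 against group 2b 0 of 17 (0.393% and 0.0428% of all genes). At an unadjusted p under 0.05 were 2 and 5 (17.9% and 13.1% of all genes), and DESeq2 called 0.

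Of the follicular helper T cell genes, the program that needs ICOS, those that passed the filter were mostly higher in the lymphocyte-rich areas. BCL6, MAF and CD40LG failed it. Their mean normalized counts in groups 2a and 2b were 1.82 and 2.56, 0.39 and 4.3, and 3.18 and 9.07. BCL6 was at 0 in groups 1 and 3. From group 2a to group 2b 6 of the 7 tested rose and 0 fell, with a median of 2.82, where 5.98% of all genes were called higher. The highest were CXCR5, the follicle homing receptor of helper T and B cells, at 6.21 (edgeR adjusted p = 6.4e-06), which passed the filter through group 2b alone, and its ligand CXCL13 at 4.55 (8.7e-05). IL21, a cytokine of these cells, had 36.3 to 80.6 normalized counts in group 2b, 25.0 to 154 in group 3 and at most 22.2 in groups 1 and 2a. In group 3 against group 2b, where 0 members were called, the transcription factor gene TOX2 was higher by 1.003 (SE 0.17, edgeR adjusted p = 0.0381), but it was not called in 14 of 20 alternatives (0.88 to 1.09). CXCL13 (-2.01, edgeR adjusted p = 0.269) and CXCR5 (-1.22, 0.413) had lower values in group 3 and were not called. The B cell markers were not called there either (median -1.33, 0 of 6 called by edgeR or DESeq2, 3 of 6 at an unadjusted p under 0.05, against 13.1% of all genes). Beside these genes, B cell markers were also higher in group 2b than in group 2a, with 5 of 6 called (5.98% of all genes), of which CD79A and MS4A1 passed the filter through group 2b alone (summed normalized count 1029 to 1745 against 339 to 868), as were 8 of 9 T cell and 3 of 3 natural killer cell markers tested. The latter 3 were KLRK1, GNLY and NKG7, while NCR1, NCR3 and KLRD1 failed the filter. NCR1 had at most 1.915 normalized counts in any sample. The 3 calls were not taken as a measure of natural killer cells. EdgeR called 0 of 8 Langerhans and myeloid, 0 of 8 keratinocyte, 0 of 4 plasma cell and 0 of 6 endothelial and fibroblast markers (1, 2, 1 and 0 at an unadjusted p under 0.05, and 0, 2, 0 and 0 called by DESeq2), and no mast cell marker passed the filter. Of all 11545 genes, 3462 had an unadjusted p under 0.05 and DESeq2 called 1265. The part of each cell type in the members' counts was not tested.

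**Figure D5:**
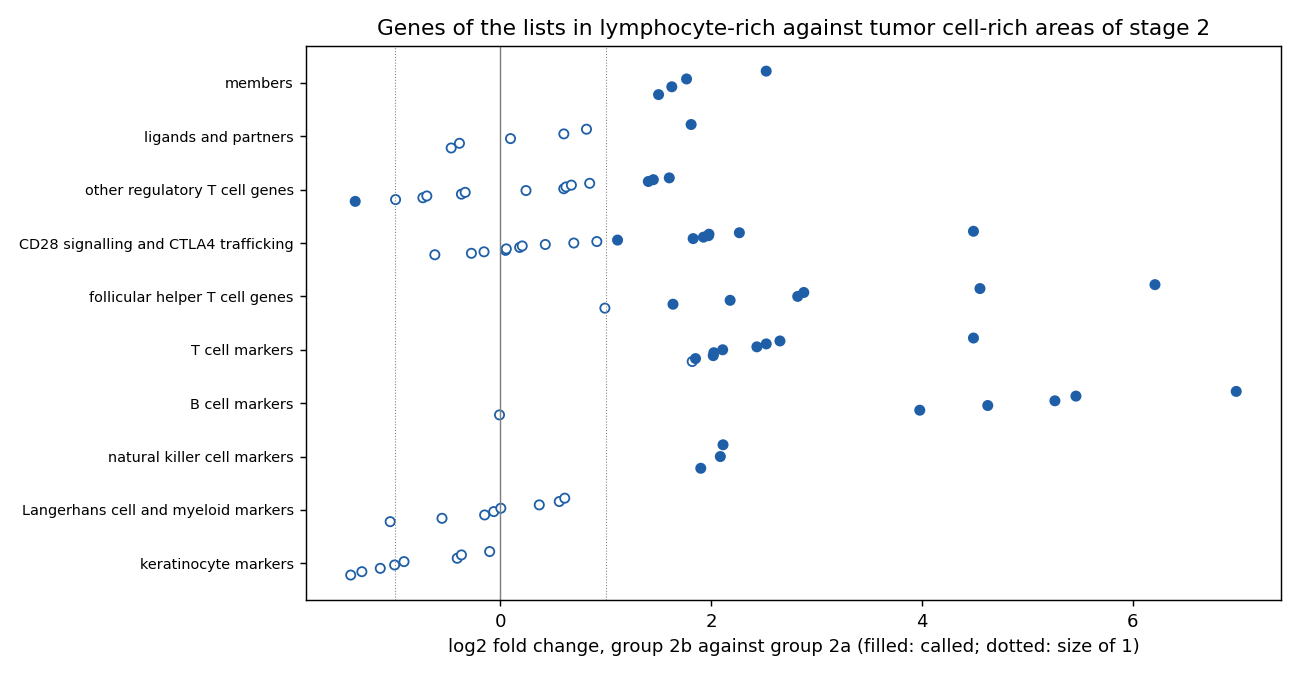
Log2 fold change of group 2b against group 2a for each tested gene of the lists, 1 row per list, with filled points for genes called by edgeR and dotted lines at a size of 1. The members lie between 1.50 and 2.52 and the T cell markers between 1.82 and 4.49, while the Langerhans and myeloid and the keratinocyte markers have no called gene.

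Within groups, the members varied together to different degrees. After the group means had been subtracted, the Pearson correlation of log2(normalized count + 1) over the 21 samples was 0.67 between CTLA4 and ICOS, 0.50 between CTLA4 and CD28, 0.43 between CD28 and ICOS and 0.19 between CTLA4 and IKZF2. With CD3E it was 0.64 for TNFRSF4, 0.61 for IKZF2, 0.53 for CD28, 0.48 for CTLA4 and 0.18 for ICOS. These describe values that share libraries and depth, and those of ICOS and CD28 rest on few reads. Among 11199 genes, the most similar to CTLA4 in this measure were ANKS4B (0.76), ZUP1 (0.76), LOC119871388 (0.76), RFWD3 (0.75) and STK39 (0.73). For CD28 they were CHST7 (0.78), PCNX1 (0.76), GNG3 (0.75), CHST12 (0.75) and LOC100687459 (0.74), and for ICOS AP4E1 (0.82), H1-3 (0.78), TRIM45 (0.75), FDFT1 (0.74) and NCOA2 (0.73). No gene of the lists was among them.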

How the data were processed

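RNA of 21 samples in 4 groups, taken from the sample labels, had been trimmed with Cutadapt, aligned with STAR to UU_Cfam_GSD_1.0 and counted with featureCounts by the authors. The authors deposited raw counts, identical in the 2 tables, and a signal, the normalized count, which equalled the raw count over a size factor of 0.855 to 1.27. The authors also deposited a log2 fold change and a p-value per gene from DESeq2, which were not used. Versions, molecular identifiers and strand handling are not given in the sources used here. Each entry's name ends in a number whose meaning they do not give. A total of 21320 symbols were matched to the RefSeq table of the same assembly for positions. Sequences were not used here, nor were FOXP3, CD207, CDH5 and TPSAB1 analysed, so the planned ratio of FOXP3 to CD3E was left out.

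The main test was the quasi-likelihood F-test of edgeR 4.0.16 in R 4.3.3 (TMM, the 2 groups compared, genes with at least 10 counts in at least 5 of their samples). A gene was called where its adjusted p (Benjamini-Hochberg over all tested genes) did not exceed 0.05 and its log2 fold change was 1 or more in either direction. The test was tried on simulated data. Members below the filter and the ratios were compared by 2-sided exact permutation tests (scipy 1.17.1) on log2(normalized count + 1). Group 2a against group 1 and group 3 against group 2b are the study's comparisons, and the other 2 follow from its design. They share groups. The labels give no processing batches, so these were not tested. The alternatives were other size factors, DESeq2 1.42.0, all genes with a read, all 4 groups in 1 fit, a replicate block, DV200 as a covariate, other pseudocounts, pooled or single-dog group 2b samples, and leaving out each sample. The members and lists were chosen with earlier results of these data known. All members, all ligands and partners, and up to 4 called genes per list with the lowest adjusted p were to be named. A gene of the CD28 signalling list that met this rule is not reported here. Others, such as LRBA, DEF6, CCR4, CCR8, IKZF4 and IL21, and the IL2RA pattern were chosen after their values were seen. Between 2113393 and 3559404 reads per sample were counted, and a count of 0 was taken to allow up to 3 counts, a limit that covers counting error only.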

Additional observations from a re-analysis of the deposited data

Results flagged for a closer look

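In 7 of 32 sets of group values, 1 sample stood far from the others by Dixon's criterion. Its rate of about 1 in 20 holds for normally distributed values. A set with reads in 1 sample only is always flagged, and several sets are low counts with many zeros. The 7 are therefore not set against chance. CD28 had a single high sample in group 1 (6.38 normalized counts), in group 2a (8.72) and in group 2b (26.5). ICOS had 1 sample with reads in group 1 (1.82) and 1 in group 2a (1.17), and TNFRSF18 had 1 in group 2a (0.97), each on 1 or 2 reads. The log2 ratio of CTLA4 to CD3E was lowest, at -5.54, in replicate 1 of group 3, where CTLA4 had 21 reads and CD3E 1019. Replicate 3 of group 1 held the high CD28 and ICOS values, and its T cell marker sum of 2260 was the highest of its group. The cause was not tested.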

How the results depend on the processing

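Of 616 recomputed values, 582 kept their side of the threshold, or stayed within 1.5 times for a count, and 0 called values reversed. Among these, 25 values that had not passed changed sign, such as IKZF2 in group 2a against group 1 (-0.68 with DV200 as a covariate). The members called in group 2b against group 2a were 3 to 4 of those tested when 1 sample was left out, the 1 lost being CD28, which failed the filter or the threshold and whose adjusted p was also 0.0687 with every gene that had a read and 0.0538 with all 4 groups in 1 fit. They were 0 when group 2b was reduced to its 2 single-dog samples. The members called in group 3 against group 1 were 3 with DESeq2 or all 4 groups in 1 fit, 2 with every gene that had a read or with the replicate block, and 0 with DV200 as a covariate, where the calls over all genes fell from 955 to 62. Leaving out 1 sample gave 0 to 3. It was 0 without any 1 of replicates 2 to 5 of group 3, since TNFRSF4 then failed the count filter, and 3 without replicate 3 and 2 without replicate 4 of group 1. ICOS in group 3 against group 2b ran from -1.51 to -0.75 when 1 sample was left out and passed without replicate 5 of group 3 (-1.51, exact permutation p = 0.0381). In group 3 against group 1 it ran from 1.21 to 1.98 and passed without replicate 1 of group 3 (1.98, exact permutation p = 0.0317). Replicate numbers did not pair the samples (1 of 5 pairs with a correlation over 0.1 in each comparison), and the replicate block, which leaves out replicate 6, gave 3 in group 2b against group 2a, where CD28 failed the filter, and 0 in the study's comparisons. Calls over all genes in group 2a against group 1 were 44 with edgeR and 264 with DESeq2, and in group 3 against group 2b 5 and 47. Counts of 3 or fewer limit what ICOS, IL2RA and TNFRSF18 can show.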

Other observations

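Among 20498 genes with a read in groups 2b and 3, IL2RA was the 1 gene with at least 3 counts in all 6 samples of group 2b and 0 in all 5 of group 3, a pattern described after its values had been seen. The limit of 3 is the lowest count that IL2RA itself had in group 2b, so its standing alone is no support. Genes with a read in 1 group alone numbered 596 for group 2b, 343 for group 3, 336 for group 2a and 282 for group 1. Group 2b also held the pooled samples and 1 sample more than the other groups. Replicate 1 of group 1, with the lowest T cell marker sum (65.2), had 14 reads of CTLA4, 3 of CD3E and 0 of CD28 and ICOS.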
